A study of Homo sapiens with 4 samples.

Results

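The step from day 0 to day 2 of a differentiation of human embryonic stem cells toward blood is described here, in which activin A and BMP4 were the factors added. It consists of 2 of the 4 libraries of the series, 1 undifferentiated culture (day 0) and 1 culture after 2 days of the factors (day 2). The 2 were chosen by their labelled day alone. Both came from H1, an established human embryonic stem cell line, labelled wild type. The day 2 cells had been kept in a custom form of the stem cell medium mTeSR1 with 40 ng/ml activin A and 50 ng/ml BMP4. The make-up of that medium is not given in the sources used here, and neither library is labelled as sorted. The other 2 libraries, days 3 and 4, followed a change to 40 ng/ml VEGF and 50 ng/ml bFGF, and are used below only to show where a gene stood later. Each day is 1 library of 1 line, so no difference has a replicate check and no p-value is given. In RNA of a whole culture, fewer cells of a type and less RNA per cell cannot be told apart.

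Activin A is a ligand of the TGF-beta superfamily that, like NODAL, binds type II and type I activin receptors, and these phosphorylate SMAD2 and SMAD3. The phosphorylated SMADs join SMAD4 and act on genes with partners such as FOXH1 and EOMES. BMP4 acts through other type I receptors and SMAD1, SMAD5 and SMAD9, with the ID genes among its best known direct targets. In the embryo both pathways, with WNT and FGF, form the primitive streak, where epithelial cells become mesoderm and endoderm, and each pathway induces its own inhibitors.

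Upstream sequences of 4 genes that were higher at day 2 are shown first, 2 of the NODAL pathway (CER1 and MIXL1) and 2 BMP targets (ID1 and ID3), because the results come back to their levels. Each is the 250 bases before the start site, 5′ to 3′ on the gene's strand, from RefSeq on GRCh38.p14. Capitals mark any match, on either strand, to the letters ATCCACA (FOXH1 type), GGTGTGA (T-box type), CAGAC (SMAD type) or GGCGCC (GC-rich SMAD type). No match overlapped another.
CER1, chr9:14722734-14722983, minus strand: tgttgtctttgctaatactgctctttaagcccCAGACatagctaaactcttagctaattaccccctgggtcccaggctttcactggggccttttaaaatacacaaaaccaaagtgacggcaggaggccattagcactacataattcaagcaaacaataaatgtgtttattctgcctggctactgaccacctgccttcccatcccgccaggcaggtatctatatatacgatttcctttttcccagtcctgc
MIXL1, chr1:226223414-226223663, plus strand: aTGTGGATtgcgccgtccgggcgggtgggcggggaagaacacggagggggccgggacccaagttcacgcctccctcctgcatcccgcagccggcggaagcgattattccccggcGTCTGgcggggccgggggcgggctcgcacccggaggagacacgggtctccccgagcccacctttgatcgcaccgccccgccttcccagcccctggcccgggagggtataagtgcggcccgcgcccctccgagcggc
ID1, chr20:31605039-31605288, plus strand: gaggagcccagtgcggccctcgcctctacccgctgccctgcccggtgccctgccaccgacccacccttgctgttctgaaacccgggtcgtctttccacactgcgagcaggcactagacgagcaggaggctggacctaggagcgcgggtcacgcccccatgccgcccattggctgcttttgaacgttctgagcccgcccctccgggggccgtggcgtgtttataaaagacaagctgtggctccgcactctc
ID3, chr1:23559502-23559751, minus strand: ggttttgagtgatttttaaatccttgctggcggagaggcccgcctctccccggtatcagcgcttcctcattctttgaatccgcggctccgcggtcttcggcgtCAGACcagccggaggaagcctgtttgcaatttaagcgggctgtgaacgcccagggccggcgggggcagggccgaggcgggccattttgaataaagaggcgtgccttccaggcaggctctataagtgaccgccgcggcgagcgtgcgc
The FOXH1-type letters stand only in the MIXL1 window, on its other strand, beginning 249 bases before the start site. The SMAD-type letters begin 218 bases before the start of CER1, 136 before that of MIXL1 (other strand) and 147 before that of ID3. Of 35116 RefSeq upstream windows of the same length, 2.27% hold the FOXH1-type letters, 2.76% the T-box type, 38.0% the SMAD type and 16.4% the GC-rich SMAD type. These are letter matches in short windows, and binding was not measured.

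The day 0 and day 2 libraries held 5.04 and 5.20 M estimated counts over 17383 and 17390 listed genes, so 1 read was worth 0.198 and 0.192 CPM (counts scaled to a library total of 1000000). A gene listed at 0 is compared with a floor of 3 counts, 0.595 and 0.577 CPM. Folds are ratios of CPM, with exact 95% intervals in parentheses that cover counting error only. Defining markers went with the labels: 7 stem cell markers summed to 7667 CPM at day 0 and 3345 at day 2, and 6 primitive streak markers to 1.59 and 645. The 6 markers of definitive endoderm summed to 4.57 and 432 CPM. At day 2 GATA6, GATA4, SOX17, CXCR4, FOXA2 and HHEX stood at 187, 107, 88.7, 38.5, 6.93 and 2.69 CPM. The 6 markers of amnion and trophoblast summed to 8.93 and 191 CPM. Of the latter GABRP stood at 7.15 and 2.5 and CGA and VTCN1 stayed under 1 CPM. Neuroectoderm markers stayed near 0, at 1.98 and 4.23 CPM with 2 of 5 at 0 reads on both days. So did blood markers, at 5.76 and 2.12 CPM. The 6 fibroblast markers summed to 376 and 705 CPM, with DCN and FAP at 0 reads on both days.

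Of 15403 genes with at least 1 CPM on either day, 687 (4.46%) were higher at day 2 by 4-fold or more and 315 (2.05%) lower, by log2(CPM + 1). At 2-fold these were 1867 (12.1%) and 1530 (9.93%), and these shares are the background for every count of list members below. A gene can be in several lists, and members that pass the minimum of 1 CPM on 1 day only are counted out for each list. For such members the filter set the direction of the difference. The other 12006 genes (77.9%) differed by less than 2-fold, and the median over all genes tested was -0.06. The genes 4-fold higher were a small part of the day 0 library, 0.682% of its counts, and 7.73% of the day 2 library. Those 4-fold lower held 3.04% of the day 0 library and 0.412% of that of day 2. Among the higher genes, 279 were under 1 CPM at day 0, of which 106 had 0 reads. At day 2 157 of the 687 had reached 100 CPM. Of the 315 lower genes, 106 were under 1 CPM at day 2, of which 33 had 0 reads.

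The largest gains in share of the library were in genes of the matrix, of metabolism and of secreted proteins. FN1, which encodes fibronectin, stood at 259.6 CPM at day 0 and 3543 at day 2, 13.6-fold higher (12.9 to 14.4). The glucose transporter gene SLC2A3 stood at 874 and 3359.9 CPM, 3.85-fold higher (3.72 to 3.98). SERPINE2, a secreted inhibitor of serine proteases, measured 76.6 and 2205 CPM and TNC, the matrix protein tenascin C, 16.6 and 1423 CPM, 85.7-fold higher (68.9 to 107). AHNAK, a giant scaffold protein of the cell cortex, measured 23.8 and 1593 CPM, 66.9-fold higher (55.9 to 80.8). NTS, which encodes the peptide neurotensin, measured 43.5 and 1882 CPM and the retrotransposon-derived imprinted gene PEG10 409 and 2163 CPM. All of these were higher at day 2, and FN1 was the third most abundant gene of that library by CPM. CPM is not scaled by length: by FPKM (counts per length and depth) FN1 stood at 403 there, below CER1 at 1891. The 10 largest losses included genes that most cells express, such as EEF1A1, which encodes a translation elongation factor (9193 and 7274 CPM), and GAPDH, of glycolysis (3532 and 2218 CPM), both under 2-fold. The noncoding RNA ESRG, second only to EEF1A1 by CPM at day 0, stood at 7359 and 2866 CPM, 2.57-fold lower (2.52 to 2.62). By FPKM ESRG was at 2327 at day 0, below ACTB at 3206. The surface glycoprotein gene CD24 measured 3162 and 497 CPM, 6.36-fold lower (6.1 to 6.63), and SEPHS1, of the selenophosphate synthetase family, 1482 and 173 CPM, 8.57-fold lower (8.0 to 9.2).

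**Figure D1:**
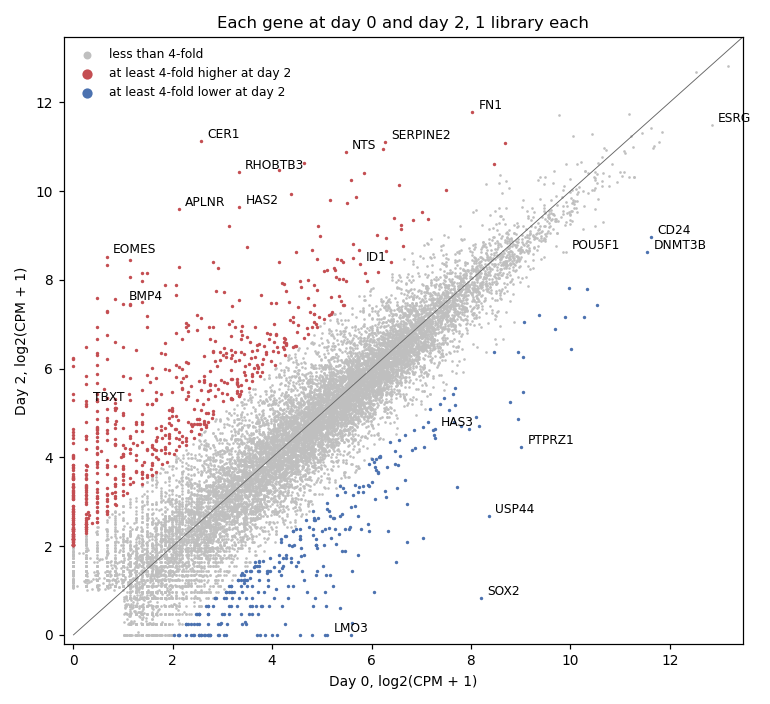
Each point is 1 gene with at least 1 CPM on either day, with log2(CPM + 1) at day 0 on the x axis and at day 2 on the y axis, 1 library each; the line marks equal values. Red marks the 687 genes higher at day 2 by 4-fold or more and blue the 315 lower, with CER1 and EOMES far above the line and SOX2 and LMO3 far below it.

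Beside the pluripotency factors, the genes that were lower by the most included several of neural and glial name. PTPRZ1, a receptor-type tyrosine phosphatase of glial progenitors, stood at 514 CPM at day 0 and 17.7 at day 2, 29.1-fold lower (23.6 to 36.2). TUBB4A, a beta-tubulin of the brain, measured 39.9 and 0.533 CPM, 74.9-fold lower (23.3 to 338). The palmitoyltransferase family gene ZDHHC22 measured 104 and 3.27 CPM and TMEM151B 32.8 and 0.577 CPM. ARC, an immediate early gene of neurons, stood at 22.4 and 0 CPM, at least 38.9-fold lower. ARC and LMO3 were the members of this group with 0 reads at day 2. Another 3 values of 0 at day 2, in PHOSPHO2-KLHL23, NME1-NME2 and CKMT1B, belong to read-through or duplicated gene models whose reads can be assigned to a neighbour or copy.

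Of 24 genes of primed pluripotency (the state of human embryonic stem cells), all passed the filter, 1 only through day 0. Of these, 16 were at least 2-fold lower at day 2 and 0 were 2-fold higher, with a median log2 difference of -1.46. The levels spread widely. SOX2, the HMG-box partner of POU5F1, stood at 292 CPM at day 0 and 0.77 at day 2, 379.9-fold lower (148 to 1396). USP44, a ubiquitin protease, measured 327 and 5.39 CPM, 60.6-fold lower (41.8 to 91.5), and PRDM14 88.9 and 2.13 CPM, 41.8-fold lower (23.3 to 84.8). The core factor POU5F1 (OCT4) differed far less, 2.43-fold lower (2.31 to 2.56) from 962 and 396 CPM, as did NANOG, at 199.6 and 83.7 CPM. Pseudogenes of the pair can take part of their reads. The kinase gene LCK measured 60.5 and 4.04 CPM and the zinc finger gene ZSCAN10 153 and 20.6 CPM. Of 14 naive pluripotency genes (the earlier, preimplantation state), 9 passed the filter, with 2 at least 2-fold higher and 1 lower. KLF5 measured 2.58 and 62.3 CPM and TFAP2C, which also belongs to amnion and trophoblast, 7.34 and 75.2 CPM. The orphan receptor gene NR5A2 measured 19.1 and 1.15 CPM, 16.5-fold lower (7.31 to 46.1).

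Most streak genes were under 1 CPM at day 0, 9 of 22 being at 1 CPM or more. Of the 22 genes of the streak and nascent mesoderm 21 passed the filter, 12 only through day 2, and 19 were at least 2-fold higher, with a median of 4.54. For the 12 the direction was set by the filter. EOMES, the T-box factor that acts with SMAD2, stood at 0.595 CPM at day 0 and 367 at day 2, 617-fold higher (211 to 2994). TBXT, the brachyury factor, measured 0.198 and 35.8 CPM and the paired-type homeobox factor MIXL1 0.198 and 56.4 CPM, each from 1 read. APLNR, the apelin receptor of migrating mesoderm, measured 3.37 and 774 CPM, 229-fold higher (143 to 394). The 6 streak markers differed in how long they lasted: EOMES measured 167 CPM at day 3 and 37.5 at day 4, and MIXL1 5.77 and 0.91. Of 18 definitive endoderm genes 15 passed, 9 only through day 2, with 12 at least 2-fold higher and 1 lower; the median was 2.28. GATA6, a zinc finger factor of endoderm and heart mesoderm, measured 0.794 and 187 CPM and the endoderm factor SOX17 0.198 and 88.7 CPM. PRDM1, a zinc finger repressor, measured 3.57 and 101 CPM, 28.2-fold higher (17.7 to 48). Of 20 amnion and trophoblast genes 12 passed, 7 only through day 2, with 9 at least 2-fold higher and 1 lower. TFAP2A measured 0.397 and 66.4 CPM and CDX2 0 and 4.81, whereas CGB3, CGB5 and ELF5 did not pass the filter. How many cells of each kind the day 2 culture held was not tested.

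The machinery that receives activin and NODAL had 12 of 14 genes within 2-fold, and several of its secreted inhibitors were higher. Of all genes tested 77.9% were within 2-fold, so the machinery was near the share of all genes. Of 14 receptors and SMADs all passed the filter. Of these 1 was at least 2-fold higher, the TGF-beta coreceptor ENG (3.18 and 10.2 CPM), and 1 lower, the SMAD2 partner FOXH1 (59.5 and 28.5 CPM). The median was 0.21. The type II receptor ACVR2B measured 215 and 204 CPM, ACVR2A 15.3 and 28.9, and the type I receptor ACVR1B 19.3 and 31.4. SMAD2 measured 109 and 154 CPM, SMAD3 25.6 and 50.0 and the shared SMAD4 100.01 and 86.5. Log2 differences of these 6 genes were -0.08, 0.87, 0.68, 0.49, 0.94 and -0.21, all under 2-fold.

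Of 14 ligands and coreceptors of the same pathway 10 passed, 1 through each day alone, with 4 at least 2-fold higher and 2 lower. TGFB1, the TGF-beta 1 ligand, stood at 9.13 CPM at day 0 and 186 at day 2, 20.4-fold higher (15.1 to 28). NODAL itself measured 10.1 and 15 CPM, 1.48-fold higher (1.03 to 2.15), and its coreceptor CRIPTO (TDGF1) 1122 and 732 CPM, 1.53-fold lower (1.47 to 1.6). CRIPTO and its copy CRIPTO3 (11.4 and 14.7 CPM) can share reads. INHBA, which encodes the subunit that forms activin A, measured 2.38 and 0 CPM, at least 4.13-fold lower, and the related ligand GDF3 10.5 and 2.89 CPM. INHBE, which encodes the subunit of activin E, measured 10.6 and 25.3 CPM, TGFB2 1.79 and 5.58, and CFC1, a coreceptor gene with a near copy, 0 and 1.27. NODAL and INHBA thus lay on opposite sides of 0.

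Of 14 antagonists and feedback genes of the pathway 13 passed, 1 only through day 0, and 7 were at least 2-fold higher against 0 lower, with a median of 1.12. CER1, a secreted antagonist of NODAL, BMP and WNT ligands, stood at 4.96 CPM at day 0 and 2243 at day 2, 452-fold higher (306 to 699). LEFTY2 and LEFTY1, secreted NODAL inhibitors whose coding sequences are near copies, measured 3.61 and 53.9 and 5.12 and 35.5 CPM, 14.9-fold higher (9.37 to 25.8) and 6.94-fold higher (4.56 to 10.8). Reads that fit both copies make the split between the pair less certain than these intervals. FST, follistatin, which binds activin itself, measured 8.53 and 71.4 CPM, 8.36-fold higher (6.09 to 11.8). PMEPA1, which holds SMAD2 and SMAD3 back from the receptor, measured 31 and 93.7 CPM and the inhibitory SMAD7 28.6 and 63.1 CPM. The SMAD corepressors SKI and SKIL differed by 0.11 and -0.14 on the log2 scale. The activin-binding FSTL3 was within 2-fold, at 4.37 and 5.19 CPM. CER1 was far above the others, and by FPKM (counts per length and depth) it stood at 1891 at day 2 against 37.8 for FST and 25.1 for LEFTY2. At day 3, after the medium change, CER1 was at 26.1 CPM and LEFTY1 at 1.64.

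On the BMP side ligands, receptors and inhibitors were all among the higher genes. Of 18 ligand genes 11 passed, 3 only through day 2, with 5 at least 2-fold higher and 1 lower. BMP4, the factor that was added, was itself at 0.992 CPM at day 0 and 176 at day 2, 177-fold higher (75.7 to 547). BMP2 measured 1.59 and 252 CPM, 159-fold higher (80.3 to 368), and the stress-responsive ligand GDF15 6.15 and 48.3 CPM, 7.85-fold higher (5.39 to 11.8). BMP6 and BMP7 measured 28.8 and 29.2 and 13.3 and 16.7 CPM, under 2-fold. The single lower ligand was BMP8A, at 7.56 and 2.96 CPM, which has the near copy BMP8B.

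Of 11 BMP receptor and SMAD genes 10 passed, 1 only through day 2, with 5 at least 2-fold higher and 1 lower. BMPR2, the type II receptor, stood at 42.2 CPM at day 0 and 257 at day 2, 6.09-fold higher (5.26 to 7.06), and the type I receptor ACVR1 at 21.8 and 58.1 CPM, 2.66-fold higher (2.13 to 3.34). The main type I receptor BMPR1A measured 136 and 231 CPM, 0.76 apart on the log2 scale. SMAD9 measured 2.91 and 25.6 CPM, 8.79-fold higher (5.03 to 15.8), whereas SMAD1 and SMAD5 measured 33.5 and 36.4 and 107 and 157 CPM. The 3 SMADs of 1 pathway thus differed unequally, with log2 differences of 2.76, 0.11 and 0.55. The coreceptors parted as well: RGMA measured 29.6 and 8.08 CPM and RGMB 36.1 and 75.2 CPM.

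Of 17 BMP antagonists and feedback genes 14 passed, 5 only through day 2, with 11 at least 2-fold higher and 1 lower, and a median of 2.60. SMAD6, the inhibitory SMAD of the pathway, stood at 1.79 CPM at day 0 and 145 at day 2, 81.3-fold higher (42.6 to 179). The decoy receptor BAMBI measured 21.2 and 392 CPM, 18.5-fold higher (15.2 to 22.6). Secreted BMP binders were several at once: NOG, noggin, measured 0.198 and 49.1 CPM, GREM1 0.462 and 16.7 and BMPER 2.58 and 94.1. CHRDL1, a chordin-like binder, was the exception, at 22.6 and 4.2 CPM and 5.38-fold lower (3.37 to 8.86). Of 16 immediate targets all passed, 8 only through day 2, and 13 were at least 2-fold higher against 0 lower, with a median of 3.01. The ID genes, which encode inhibitors of basic helix-loop-helix factors, were all 4 higher. ID1 measured 53.2 and 329 CPM, 6.19-fold higher (5.43 to 7.06), and ID3 55.8 and 158 CPM, 2.84-fold higher (2.47 to 3.26). ID2 measured 9.33 and 114 CPM, 12.2-fold higher (9.05 to 16.8), and ID4 5.76 and 101 CPM, 17.5-fold higher (12.1 to 26.4). The mesoderm factor HAND1 measured 1.79 and 284 CPM and the homeobox factor MSX2 1.19 and 171 CPM. None of the windows printed above held the T-box or GC-rich letters. CER1, ID1 and ID3 also lacked the FOXH1-type letters, and ID1 the SMAD-type letters.

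No WNT ligand or agonist is named among the factors of the step, and genes of that pathway parted by family member. Of 21 ligand and secretion genes 10 passed, 5 only through day 2, with 8 at least 2-fold higher and 0 lower. WNT5A stood at 6.55 CPM at day 0 and 307 at day 2, 46.8-fold higher (33.2 to 68.2), WNT5B at 0.992 and 56.2 CPM and the streak ligand WNT3 at 3.97 and 114 CPM, 28.8-fold higher (18.5 to 47.6). WLS, which carries WNT proteins to the cell surface, measured 1.19 and 347 CPM, 291-fold higher (133 to 794). Of 20 receptor genes 18 passed, 2 only through day 2, with 6 higher and 2 lower. ROR2, a WNT5A receptor, measured 3.97 and 68.3 CPM, 17.2-fold higher (11 to 28.5), and the frizzled genes FZD4 and FZD8 28.7 and 218 and 5.56 and 44.1. LGR5, an R-spondin receptor, measured 0.595 and 156 CPM. Named after their values were seen, ROR1 measured 137 and 56.4 CPM, 2.44-fold lower (2.12 to 2.8), and FZD5 78.8 and 29.1 CPM, 2.71-fold lower (2.24 to 3.29). The coreceptor LRP6 differed least among members of at least 100 CPM on both days, at 178 and 173 CPM.

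Secreted WNT antagonists went both ways: of 16, 13 passed (3 only through day 2, 2 only through day 0), with 7 at least 2-fold higher and 4 lower. SFRP1, a decoy frizzled, stood at 525 CPM at day 0 and 43.7 at day 2, 12-fold lower (10.5 to 13.8), and WIF1 at 7.54 and 0.192 CPM. DKK1, which blocks LRP5 and LRP6, measured 0 and 38.1 CPM, at least 64-fold higher, NOTUM, an enzyme that inactivates WNT proteins, 0 and 15.4, and APCDD1 1.59 and 23.3. Among 18 nuclear factors and targets, all measured (5 only through day 2, 1 only through day 0), 8 were higher and 2 lower, with a median of 0.39. LEF1, an activating partner of beta-catenin, measured 1.19 and 54.1 CPM, 45.4-fold higher (20.6 to 125), and NKD1 7.75 and 128 CPM. TCF7L1, a partner that mostly represses, measured 200.5 and 26.9 CPM, 7.44-fold lower (6.23 to 8.95). By FPKM TCF7L1 stood at 68.2 and LEF1 at 0.45 at day 0, and at 9.17 and 16.1 at day 2. CTNNB1, beta-catenin itself, differed least, at 426 and 423 CPM, and AXIN2, a widely used WNT target named after its value was seen, stood at 33.9 and 35 CPM, 1.03-fold higher (0.833 to 1.28).

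FGF ligands differed in both directions. Of 20, 12 passed, 6 only through day 2, with 5 at least 2-fold higher and 2 lower. FGF2, which stem cells make themselves, stood at 214 CPM at day 0 and 70.8 at day 2, 3.03-fold lower (2.69 to 3.42), and FGF19 at 22.4 and 3.46 CPM. The streak ligands FGF17 and FGF8 measured 0.198 and 26.9 and 0 and 8.47 CPM, and FGF10 0 and 11.4 CPM. Of 24 FGF receptor and ERK feedback genes all passed, 1 only through day 0, with 6 higher and 3 lower. FLRT3 and FLRT2, surface proteins that bind FGF receptors, measured 2.18 and 54.5 and 9.53 and 123 CPM, FGFR3 8.73 and 49.6, and the ETS factor ETV1, an FGF target in many tissues, 134 and 32.9 CPM, 4.07-fold lower (3.44 to 4.84). Other targets and feedback genes of this list parted, and 15 of the 24 members were within 2-fold. DUSP4 measured 6.75 and 27.3 CPM. Named after their values were seen, ETV4 measured 155 and 76.8 CPM, ETV5 56.8 and 67.3, SPRY4 248 and 419 and DUSP6 179 and 149. IL17RD, a feedback inhibitor, differed least, at 233 and 265 CPM.

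Of 22 NOTCH pathway genes 16 passed, 1 through each day alone, with 3 at least 2-fold higher and 3 lower and a median of 0.09. The targets among them parted: NRARP measured 36.5 and 5.19 CPM, 7.03-fold lower (4.68 to 11), HEYL 5.76 and 0.962 and the modifier LFNG 22.4 and 3.66, whereas HES1 measured 9.53 and 24.8 and HEY1 0.992 and 5.0. NOTCH3 stood at 156 and 157 CPM. Of 15 hedgehog genes 10 passed, 1 only through day 0, with 1 higher, the inhibitor SUFU (11.5 and 33.1 CPM), and 1 lower, the target GLI1 (17.1 and 3.46 CPM, 4.93-fold lower (2.94 to 8.71)). Of 18 retinoic acid genes 15 passed, 3 only through day 2, with 5 higher and 2 lower. CYP26A1, which degrades retinoic acid, stood at 3.18 CPM at day 0 and 202 at day 2, 63.7-fold higher (39.1 to 112). The binding proteins CRABP1 and CRABP2 measured 50.2 and 13.1 and 42.5 and 114 CPM, in opposite directions. Of 18 Hippo genes all passed, 1 only through day 2, with 6 higher and 0 lower. ANKRD1, a YAP target, measured 0.595 and 320.4 CPM, 538-fold higher (184 to 2611), AMOTL2 48 and 360.2 and the DNA-binding partner TEAD1 138 and 458, while YAP1, named after its value was seen, was at 298 and 359. The other 12 Hippo genes were within 2-fold. Other YAP targets differed far less than ANKRD1. CCN2 measured 63.7 and 141 CPM and, named after their values were seen, CCN1 62.7 and 120 and AXL 51.1 and 67.5. Of 17 IGF genes 14 passed, 1 only through day 2, with 7 higher and 1 lower. IGF2 measured 3.37 and 22.9 CPM, 6.79-fold higher (4.06 to 12), and IGFBP2 119 and 39.1 CPM, 3.04-fold lower (2.59 to 3.58).

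Receptors of the VEGF and PDGF families differed in both directions. Of 20 genes of this list 17 passed, all on both days, with 7 at least 2-fold higher and 2 lower. PDGFRA, a receptor of nascent mesoderm, stood at 2.78 CPM at day 0 and 61.8 at day 2, 22.2-fold higher (13.1 to 41.1). The VEGF coreceptors NRP1 and NRP2 measured 3.18 and 66.4 and 37.3 and 299 CPM, 20.9-fold higher (12.7 to 37) and 8.01-fold higher (6.88 to 9.37). KDR, the main VEGF receptor and a gene of the streak list, was already at 214 and 347 CPM, 1.62-fold higher (1.5 to 1.75), chosen here after its value was seen. The related receptors FLT1 and FLT4, named after their values were seen, measured 236 and 159 and 9.07 and 3.85 CPM. The ligand gene PDGFA measured 27.4 and 4.23 CPM, 6.47-fold lower (4.11 to 10.7). Of 14 chemokine genes 12 passed, 3 only through day 2. The receptors CXCR4 and ACKR3 measured 2.18 and 38.5 and 0.198 and 20.4 CPM, and their shared ligand CXCL12 100.4 and 21.7 CPM, 4.62-fold lower (3.76 to 5.72). The receptors were thus higher and the ligand lower.

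**Figure D2:**
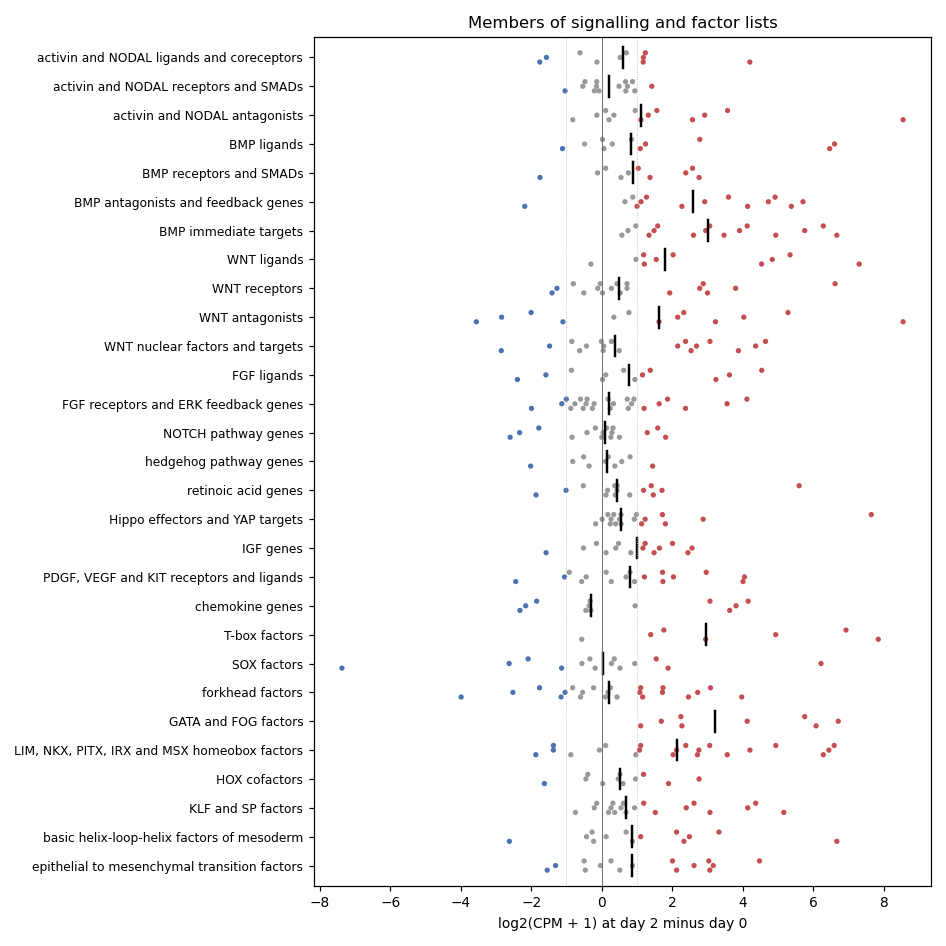
Each point is 1 member of a list of signalling genes (upper rows) or transcription factors (lower rows), placed by log2(CPM + 1) at day 2 minus day 0, among members with at least 1 CPM on either day; black bars are medians, dotted lines mark 2-fold, red and blue the members beyond it. Receptors and SMADs of activin and NODAL have a median of 0.21, against -0.06 over all genes tested. BMP targets have a median of 3.01 and GATA and FOG factors 3.20. Of the measured members, 8 of 16 BMP targets and 6 of 8 GATA and FOG factors passed only through day 2, so the filter set their direction.

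Among transcription factor families, most members that differed had hardly been detected at day 0. All 8 measured GATA and FOG factors of 9 were at least 2-fold higher, 6 of them passing only through day 2. GATA4 stood at 0.595 CPM at day 0 and 107 at day 2, GATA3 at 0.794 and 96.4 CPM and GATA2, which is required in blood formation, at 0.397 and 23.5 CPM. Of 17 T-box factors 7 passed, 5 only through day 2, with 6 higher. TBX3, of heart and limb mesoderm, measured 1.19 and 267 CPM, and MGA, the most even member, 189 and 128 CPM. Of 32 homeobox factors of the LIM, NKX, IRX, MSX and related families 21 passed, 15 only through day 2 and 3 only through day 0, with 14 higher and 3 lower. LHX1, a LIM factor of the streak, measured 0.595 and 154 CPM and ISL1, of second heart field cells, 0.397 and 24.8.

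SOX and forkhead genes went both ways. Of 19 SOX genes 14 passed (3 only through each day), with 3 at least 2-fold higher and 4 lower. SOX3, a close relative of SOX2, measured 8.73 and 0.577 CPM and SOX8 7.34 and 0.962 CPM, both lower, against SOX17 and SOX5 (0 and 2.69 CPM). SOX11 differed least among abundant members, at 122 and 148 CPM. Of 30 forkhead genes 22 passed, 7 only through day 2 and 2 only through day 0, with 9 higher and 5 lower. FOXD3, a stem cell and neural crest factor, stood at 14.9 CPM at day 0 and 0 at day 2, at least 25.8-fold lower, and FOXF1, of lateral mesoderm, at 0.397 and 21 CPM, 52.8-fold higher (14.3 to 442). FOXC1 measured 0 and 7.5 CPM and FOXJ1, the factor of motile cilia, 6.95 and 0.385. Of 11 HOX cofactors all passed, 3 only through day 2. MEIS3 measured 6.87 and 52.4 CPM, 7.64-fold higher (5.31 to 11.1). Of 23 KLF and SP genes 19 passed, 2 only through day 2, with 8 higher and 0 lower. SP6 measured 1.39 and 85 CPM, SP5 0.397 and 27.9, KLF8 20.4 and 131 and KLF6 27.6 and 149.9. Of 18 helix-loop-helix factors 13 passed, 6 only through day 2. MYCN measured 149 and 23.5 CPM, 6.37-fold lower (5.25 to 7.77), and was the only one of the 13 at least 2-fold lower.

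Changes of adhesion genes were selective. Of 17 factors of the epithelial to mesenchymal transition 15 passed, 2 only through day 2 and 1 only through day 0, with 7 at least 2-fold higher and 2 lower. ZEB2 stood at 2.58 CPM at day 0 and 78.9 at day 2, 30.6-fold higher (17.7 to 57.9), SNAI2 at 3.77 and 39.1 CPM, 10.4-fold higher (6.46 to 17.6), and SNAI1 at 2.98 and 31.7 CPM, 10.7-fold higher (6.28 to 19.5). The list also holds epithelial factors that oppose the transition: named after their values were seen, GRHL2 measured 42.5 and 16.5 CPM and GRHL3 5.36 and 24.6 CPM, while SNAI3 measured 4.17 and 0.77. Of 20 cadherin genes 16 passed, 4 only through day 2 and 1 only through day 0, with 6 higher and 0 lower. CDH2, N-cadherin, measured 86.7 and 672 CPM, 7.75-fold higher (7.01 to 8.58), and CDH11 8.14 and 134 CPM, 16.5-fold higher (12 to 23.2). The epithelial genes CDH1 (E-cadherin) and EPCAM, named after their values were seen, were still at 475 and 294 and 262 and 218 CPM, 1.61-fold lower (1.51 to 1.72) and 1.2-fold lower (1.11 to 1.3). CDH1 went on to 165 CPM at day 3 and 89.7 at day 4. By FPKM CDH2 stood at 19.7 against 98.0 for CDH1 at day 0, and at 152.6 against 60.7 at day 2. Of 22 tight junction genes 19 passed, 1 through each day alone, with 3 higher and 6 lower. CLDN6, a claudin of pluripotent epithelium, measured 569.9 and 229.7 CPM, 2.48-fold lower (2.32 to 2.66), while CLDN11 measured 4.58 and 146 CPM, 31.9-fold higher (21.1 to 50.7). The junction protein F11R differed least, at 333 and 339 CPM. Of 15 desmosome genes 12 passed, 2 only through day 0, with DSP, desmoplakin, higher (184 and 496 CPM) and EVPL, envoplakin, lower (2.98 and 0.192 CPM).

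Integrin alpha chains exchanged. Of 25 integrin genes 20 passed, 2 only through day 2 and 1 only through day 0, with 7 at least 2-fold higher and 1 lower. ITGA6, of the laminin receptor, stood at 352 CPM at day 0 and 81.4 at day 2, 4.33-fold lower (3.89 to 4.82). ITGA5, of the fibronectin receptor, measured 38.5 and 356 CPM, 9.24-fold higher (7.96 to 10.8), and ITGAV, of the vitronectin receptor, 95.1 and 599.7 CPM, 6.31-fold higher (5.73 to 6.96). By FPKM ITGA6 was at 61.3 against 8.97 for ITGA5 at day 0, and at 14.2 against 82.9 at day 2. ITGA9 measured 4.96 and 45 CPM and ITGB8 9.04 and 71.8. At day 3 ITGA6 was back at 303 CPM.

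**Figure D3:**
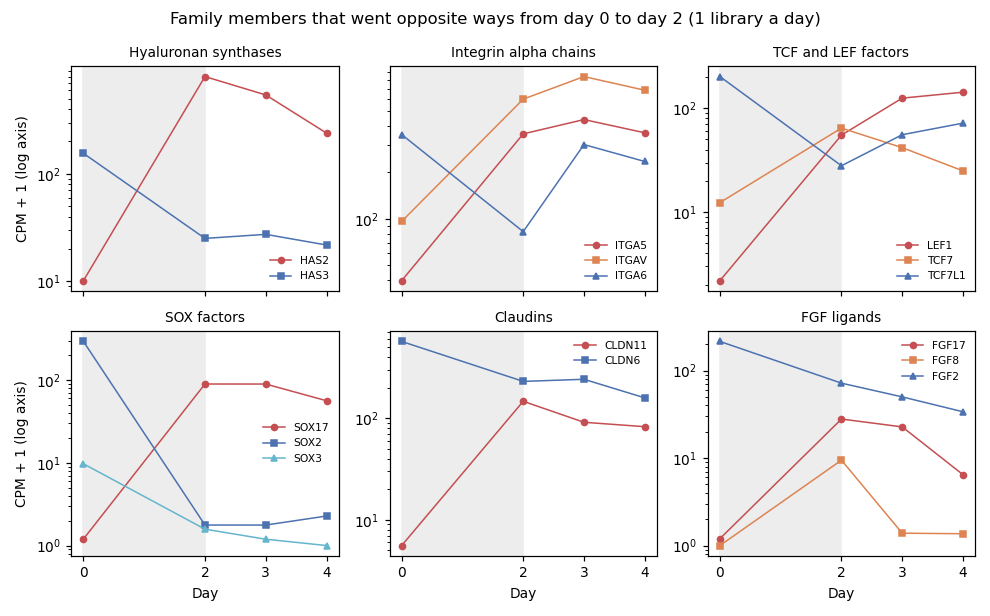
Levels as CPM + 1 on a log axis against day, 1 library a day, with the activin A and BMP4 step shaded, for 6 families whose named members lay on opposite sides at day 2; the families were chosen after their values were seen. The lines of HAS2 and HAS3, of ITGA5 and ITGA6, of LEF1 and TCF7L1 and of SOX17 and SOX2 cross within the shaded step, and those of ITGA6 and TCF7L1 climb again after it.

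Matrix genes parted in the same way. Of 28 collagen genes outside basement membranes 27 passed, 1 only through day 0, with 11 at least 2-fold higher and 6 lower. COL5A2 stood at 74 CPM at day 0 and 1962 at day 2, 26.5-fold higher (23.9 to 29.5), COL5A1 at 34.7 and 884 CPM, 25.4-fold higher (21.9 to 29.8), and COL9A2 at 1.79 and 122 CPM, 68.2-fold higher (35.7 to 149.8). COL14A1 measured 51.6 and 2.5 CPM, 20.6-fold lower (11.9 to 39.3). COL1A1, by contrast, measured 241 and 236 CPM, the smallest difference on the list, while the summed level of the list went from 1189 to 5648 CPM. Of 25 basement membrane genes 24 passed, 3 only through day 0, with 6 higher and 2 lower. COL4A1 measured 146 and 481 CPM, 3.29-fold higher (3.03 to 3.58), the laminin chain LAMB1 61.9 and 213 and FREM1 5.16 and 52.1.

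Of 20 hyaluronan and small proteoglycan genes 14 passed, 2 only through day 2 and 1 only through day 0, with 5 higher and 4 lower. HAS2, the main hyaluronan synthase of embryonic mesoderm, stood at 9.13 CPM at day 0 and 802 at day 2, 87.8-fold higher (65.7 to 120.2), and HAS3 at 154 and 24.1 CPM, 6.4-fold lower (5.3 to 7.8). By FPKM HAS2 was at 2.78 and HAS3 at 49.0 at day 0, and at 244 and 12.9 at day 2. The link protein HAPLN1, which ties hyaluronan to proteoglycans, measured 10.3 and 425 CPM, 41.2-fold higher (31.3 to 55.3), and its relative HAPLN3 28.4 and 3.08 CPM, 9.22-fold lower (5.49 to 16.6). Of 33 matrix proteases and inhibitors 29 passed, 1 only through day 2 and 2 only through day 0, with 13 higher and 6 lower. ADAMTS9 and ADAMTS5 measured 1.19 and 38.3 and 3.57 and 62.1 CPM, ADAMTS8 and ADAMTS16 16.1 and 0 and 21.2 and 1.92. Of 21 heparan sulfate genes 20 passed, 1 only through day 2, with 8 higher and 1 lower: the sulfatase SULF1 measured 18.1 and 101 CPM, the chain polymerase EXT1 42.1 and 173 and the glypican GPC3 49.8 and 9.43, 5.28-fold lower (3.88 to 7.33).

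Guidance and sorting molecules of the cell surface followed. Of 46 semaphorin, plexin, SLIT, ROBO and netrin genes 44 passed, 3 only through day 2 and 1 only through day 0, with 15 at least 2-fold higher and 6 lower. PLXNA2, a semaphorin receptor, stood at 3.37 CPM at day 0 and 311 at day 2, 92.1-fold higher (57.3 to 158), SEMA6D at 3.77 and 122 CPM, 32.3-fold higher (20.5 to 54.1), and SEMA3C at 2.18 and 38.7 CPM. NTN4, a laminin-binding netrin, measured 0 and 20.6 CPM, at least 34.6-fold higher. Of 22 Eph receptors and ephrins 20 passed, 1 through each day alone, with 7 higher and 2 lower. EPHA4 measured 8.53 and 82.2 CPM, EPHA2 44.1 and 252 and EPHB3 0.794 and 33.3, while EPHA1 measured 126 and 37.3, 3.37-fold lower (2.86 to 3.97). Of 28 protocadherin and similar genes 25 passed, 5 only through day 2, with 9 higher and 4 lower. PCDH10, a protocadherin that sorts cells, measured 7.74 and 592 CPM, 76.5-fold higher (55.8 to 108), and PCDH7 5.16 and 77.3 CPM. FAT3 differed least, at 109 and 108 CPM.

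**Figure D4:**
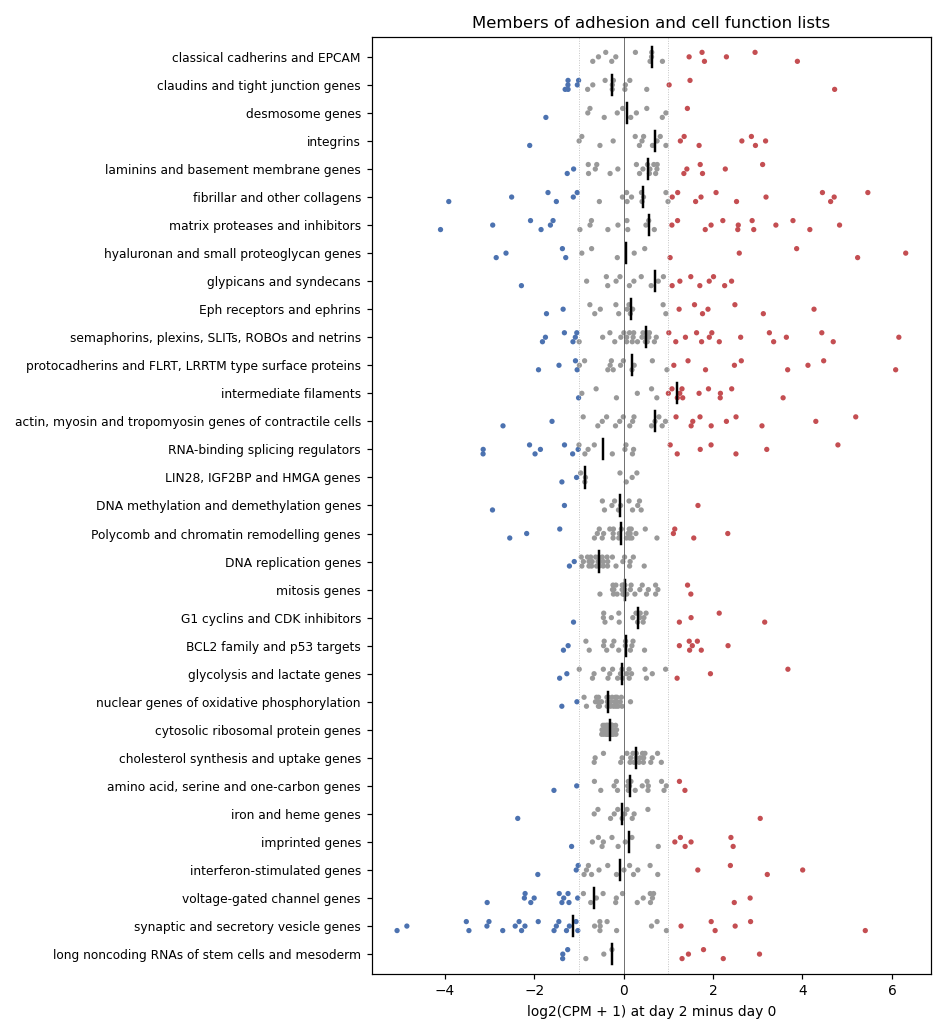
Each point is 1 member of a list of adhesion and matrix genes (upper rows) or of cell function (lower rows), placed by log2(CPM + 1) at day 2 minus day 0; black bars are medians, dotted lines mark 2-fold, red and blue the members beyond it. Ribosomal protein and cholesterol genes lie within 2-fold, while synaptic and secretory vesicle genes spread to both sides with a median of -1.14.

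In the cytoskeleton, intermediate filaments had the most members higher: of 22 genes 19 passed, 4 only through day 2, with 12 at least 2-fold higher and 1 lower, and a median of 1.20. VIM, vimentin of mesenchymal cells, stood at 93.3 CPM at day 0 and 1116 at day 2, 12-fold higher (10.9 to 13.2). The keratins of simple epithelium KRT8 and KRT19 were higher too, at 349.9 and 1573 and 52.6 and 199 CPM, 4.49-fold higher (4.27 to 4.73) and 3.78-fold higher (3.3 to 4.34). Mesenchymal and epithelial filaments were thus higher together, as were the neurofilament genes NEFL and NEFM, named after their values were seen (33.3 and 84.9 and 109.96 and 221 CPM), and KRT8 has many pseudogenes that can share its reads. Of 30 genes of contractile cells 27 passed, 4 only through day 2 and 1 only through day 0, with 10 higher and 2 lower. ACTC1, cardiac actin, measured 29.3 and 596 CPM, 20.3-fold higher (17.2 to 24.1), the smooth muscle gene TAGLN 113 and 652, and the atrial myosin light chain MYL7 0.397 and 50.0. MYH6 and MYH7, the cardiac myosin heavy chains, did not pass the filter.

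Synaptic and vesicle genes were mostly lower after the step. Of 35 synaptic and vesicle genes 34 passed (2 only through day 2, 7 only through day 0), with 19 at least 2-fold lower and 6 higher, and a median of -1.14. UNC13A, which primes synaptic vesicles, stood at 287 CPM at day 0 and 25.2 at day 2, 11.4-fold lower (9.51 to 13.7). VSNL1, a calcium sensor, measured 129.7 and 3.54 CPM, CAMKV 64.7 and 0.962 and the granule protein CHGA 41.3 and 2.69. NTS, named above, was the main exception, 43.3-fold higher (37.9 to 49.7). Of 33 voltage-gated channel genes 26 passed, 2 through each day alone, with 11 lower and 2 higher, and a median of -0.67. SCN9A, a sodium channel, measured 15.9 and 1.04 CPM, 15.3-fold lower (6.79 to 52.2), whereas the calcium channel subunit CACNA2D2 measured 14.5 and 109 CPM, 7.53-fold higher (5.89 to 9.74). Beside these counts, the 5 neuroectoderm markers stayed at 4.23 CPM or less in sum, and 20 listed neuroectoderm genes gave 10 that passed, 3 only through day 0, 3 higher and 4 lower. POU3F1 measured 24 and 2.5 CPM and HESX1 10.1 and 0.77 CPM, both lower, whereas CDH2, NES (nestin, named after its value was seen, 356 and 754 CPM) and OTX2 (35.5 and 85.4 CPM) were the 3 higher, the last of these a factor of the early head. Whether other cell types bear on these counts was not tested.

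Lists of RNA and chromatin regulators differed in how many members passed 2-fold. Of 25 splicing regulators 24 passed (4 only through day 2, 3 only through day 0), with 7 at least 2-fold higher and 8 lower. These were 29.2% and 33.3% of the measured members, against 12.1% and 9.93% of all genes. RBM24, a splicing factor of heart and muscle, stood at 0.397 CPM at day 0 and 37.7 at day 2, 95-fold higher (25.9 to 789.9), and MBNL3 at 10.3 and 103 CPM, 9.99-fold higher (7.51 to 13.6). RBM47, a splicing factor of endoderm epithelia, measured 144 and 32.9 CPM, 4.4-fold lower (3.71 to 5.22), and the neuronal factor NOVA2 9.53 and 0.192 CPM. Of 9 LIN28, IGF2BP and HMGA genes all passed, with 2 lower: HMGN5 (101 and 38.3 CPM) and IGF2BP3 (389.6 and 187 CPM). LIN28A measured 2481 and 1275 CPM, while LIN28B, its paralog, named after its value was seen, measured 319 and 365. Of 15 DNA methylation genes 14 passed, with DNMT3B (2999 and 392 CPM, 7.65-fold lower (7.3 to 8.01)) and DNMT3A (210.4 and 83.5 CPM, 2.52-fold lower (2.25 to 2.82)) lower and the demethylase TET2 higher (8.73 and 29.8 CPM, 3.41-fold higher (2.43 to 4.89)). DNMT1, the maintenance enzyme, measured 318 and 236 CPM. Of 30 Polycomb and remodelling genes 29 passed, with 4 higher and 3 lower. Their shares, 13.8% and 10.3%, were near those of all genes. PHC1, a subunit of Polycomb complex 1, stood at 1290.2 and 220.1 CPM, 5.86-fold lower (5.5 to 6.25), while its paralog PHC2 measured 4.37 and 26 CPM, 5.95-fold higher (3.77 to 9.81). JARID2, which guides Polycomb complex 2, measured 663 and 147 CPM, 4.52-fold lower (4.17 to 4.89), and CBX2 149 and 54.6 CPM. The core subunit RBBP4 stood at 461 and 445 CPM.

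Ribosomal protein and cholesterol genes all lay within 2-fold, and the other housekeeping, cell cycle and cell death lists had members beyond it. All 32 ribosomal protein genes were lower, from -0.49 (RPS14) to -0.16 (RPL6) on the log2 scale with a median of -0.31, and 0 passed 2-fold. Of 30 nuclear genes of oxidative phosphorylation 29 passed, with a median of -0.34 and 2 at least 2-fold lower, COX7C (121 and 45.8 CPM) and COX5A (77.6 and 37.1 CPM). All 22 cholesterol genes were within 2-fold, with a median of 0.28. Of 24 glycolysis and lactate genes, 1 passing only through day 2, 3 were higher and 2 lower, with a median of -0.03. PKM measured 1055 and 2419 CPM, 2.29-fold higher (2.22 to 2.37), the lactate exporter SLC16A3 0.992 and 24.4 and HK2, hexokinase 2, 158 and 64.9, 2.43-fold lower (2.14 to 2.77). Of 31 replication genes 0 were higher and 2 lower, MCM2 (189 and 81.2 CPM) and MCM5 (240.2 and 111 CPM), with a median of -0.55. Of 28 mitosis genes 2 were higher, CENPE (93.9 and 268 CPM) and CENPA (7.94 and 23.1 CPM), and 0 lower, with a median of 0.03. Among 21 G1 cyclins and inhibitors 19 passed, 2 only through day 2: CDK6 measured 40.5 and 182 CPM, 4.49-fold higher (3.85 to 5.24), CDKN2B 0.595 and 13.2, and CCNE1 60.1 and 27.1, 2.22-fold lower (1.81 to 2.73). Among 25 BCL2 family and p53 target genes 23 passed, with 7 higher and 2 lower: GADD45B measured 4.76 and 28.1 CPM and GADD45A 16.7 and 57.9.

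The deposited mean transcript length of each gene, an average over its transcripts, gave a second readout. A change is a shift in the estimated shares of transcripts of unequal length. Of 9218 genes with at least 10 CPM on both days 4835 had 1 listed transcript and the same length on both days, and 4383 had several. Of the 4383, 4041 (92.2%) differed by at most 5%. A mean longer by at least 25% at day 2 was found in 20 of them (0.456%), and one shorter by at least 20% in 9 (0.205%). Of these 29 genes 22 differed by less than 2-fold in CPM. Of all genes tested 77.9% did, so this was near the share of all genes. For comparison, 11 of 4601 genes were longer and 14 shorter from day 2 to day 3, and 9 and 15 of 4679 from day 3 to day 4. With a minimum of 20 CPM on both days, 9 genes were longer and 2 shorter at day 2. No interval can be given for a length, and error in assigning reads to transcripts was not tested.

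HAS3, lower in level, was also the most shortened: its mean length was 3135 bp at day 0 and 1870 bp at day 2, and it stayed at 1884 and 1632 bp at days 3 and 4. TSC22D1, a TGF-beta responsive gene, was at 5611 and 4254 bp while its level held, at 99 and 105 CPM, and it went on to 4083 and 3932 bp. In both genes the shorter mean stayed to day 4. PREX2, a Rac activator, was at 5094 and 3833 bp with 68.9 and 11.7 CPM, but at 5132 bp on day 3. Among longer genes NFASC, neurofascin, was at 4737 and 7723 bp with 12.9 and 36.6 CPM, and back at 4492 bp at day 4. MYLK, myosin light chain kinase, was at 5309 and 7640 bp with an even level of 29.8 and 29.6 CPM. DMD, dystrophin, was at 5139 and 6882 bp and then at 12265 and 11885 bp, with 10.7 and 95.8 CPM, 8.94-fold higher (6.74 to 12.1). CAMTA1, a calmodulin-binding factor, was at 934 and 1366 bp.

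Of 45 genes listed for known isoform switches in development or in the epithelial to mesenchymal transition, 40 had at least 10 CPM on both days. None reached these limits and 37 were within 5%, 3 of them with 1 listed transcript. Of all genes with several transcripts 92.2% were within 5%, and only 0.456% and 0.205% reached the limits. The list was thus near the shares of all such genes. CD44, an adhesion receptor with variable exons, differed most, at 4888 and 4200 bp with 12.3 and 26.4 CPM. DNMT3B was at 4333, 4266, 4201 and 4137 bp at days 0, 2, 3 and 4. The fibroblast growth factor receptor FGFR2, whose exons switch between epithelium and mesenchyme, was at 3670 bp on both days, and CTNND1, p120 catenin, at 5991 and 6000 bp. Isoforms of nearly equal length, such as those of FGFR2, cannot be seen in a mean length.

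**Figure D5:**
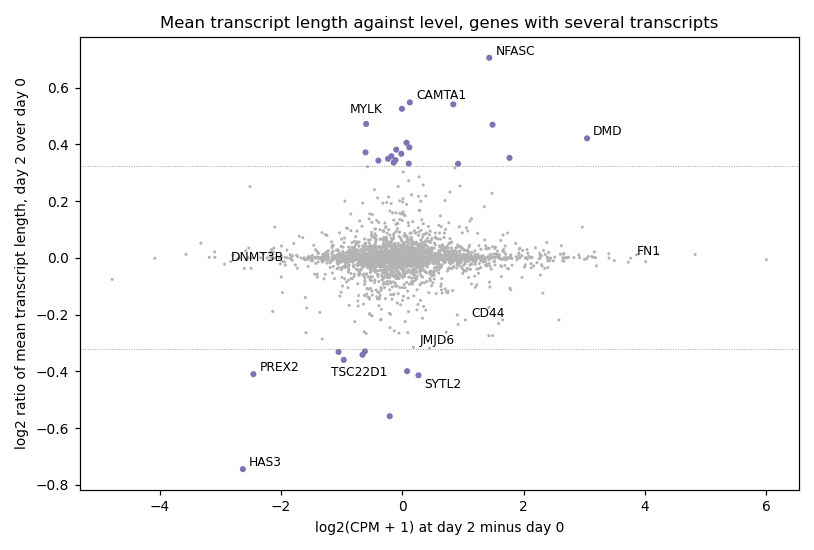
Each point is 1 of the 4383 genes with several listed transcripts and at least 10 CPM on both days, with its log2(CPM + 1) difference on the x axis and the log2 ratio of its mean transcript length on the y axis; dotted lines mark 25% longer and 20% shorter. The 20 longer and 9 shorter genes (purple) lie mostly within 2-fold on the x axis, as do most genes tested, with HAS3, PREX2 and DMD among the exceptions.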

How the data were processed

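RNA of H1 cells was sequenced on 4 days, 1 library a day, of which days 0 and 2 are compared. Extraction was by Trizol and library construction by a TruSeq kit, per the labels' protocols. The submitters' processing notes name BWA, Bowtie, RSEM and hg19, with no version or role. The series' design text instead names BWA with ANOVA and TopHat with Cufflinks, so which tools made the deposited values is not settled. Per the file headers, each deposited file gives an expected count, a mean transcript length in bp and FPKM for each gene. CPM is the expected count over the column sum, scaled to 1000000. Deposited FPKM was used to compare levels between genes and as an alternative. The deposited length is the mean over transcripts.

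Gene names are those of RefSeq (GRCh38.p14), matched for 19273 of 19390 IDs. Genes reaching 1 CPM on either day were described by log2(CPM + 1) at day 2 minus day 0. With 1 library per group there was no test, so a rule of size, 4-fold for all genes and 2-fold for lists, took its place. Fold intervals (conditional binomial, 95%, on rounded counts) cover counting error only. Replication between cultures is absent. The 69 gene lists and the members named were chosen with earlier results of these data known. Named genes were the 15 largest differences each way at 10 CPM or more, the 6 most different members of each list, any member of the activin, NODAL and BMP lists, the 10 largest gains and losses of CPM, the 10 most abundant genes, the 12 largest length ratios each way and the isoform list, 6 fixed markers, and an even member above 100 CPM. Values for other genes are marked in the text. Some genes that the rule names are not reported here. Python 3.11.15, numpy 2.4.6, pandas 2.3.3 and scipy 1.17.1 were used, with R 4.3.3, edgeR 4.0.16 and DESeq2 1.42.0 for scaling factors in the alternatives.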

Additional observations from a re-analysis of the deposited data

How the results depend on the processing

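No paired analysis was possible because each day is 1 library. With a pseudocount of 0.1 CPM, 1058 genes were at least 4-fold higher and 709 lower, and with 5 CPM 349 and 121, and at 2-fold 1159 and 687. The share of higher genes among those at least 4-fold apart was 68.6%, against 59.9% and 74.3% under these pseudocounts. TMM factors, median-of-ratios factors, deposited FPKM, a minimum of 5 CPM and leaving out read-through models kept each count they were run for within 1.5 times. Dropping the minimum could not change the 2-fold and 4-fold counts. With a pseudocount of 1 CPM, a gene under 1 CPM on both days cannot reach 2-fold. The length counts moved with the minimum and the ratio: 30 longer and 16 shorter at a minimum of 5 CPM, 9 and 2 at 20 CPM, 65 and 67 at a ratio of 1.1, and 1 and 1 at a ratio of 1.5. Of 69 list medians, 11, all under 1 in size, changed sign under some setting, among them those of the activin and NODAL ligands, SOX, forkhead, helix-loop-helix, chemokine, Polycomb and protocadherin lists. Counting error is largest for genes with few reads at day 0, and no alternative covers the spread between cultures.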

Other observations

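Of 20 imprinted genes 16 passed the filter of 1 CPM on either day, 1 only through each day, with 6 at least 2-fold higher at day 2 and 1 lower. PEG10, needed for the placenta, stood at 409 CPM at day 0 and 2163 at day 2, 5.29-fold higher (5.04 to 5.54). MEST measured 286 and 127 CPM, 2.25-fold lower (2.05 to 2.47), and the cell cycle inhibitor CDKN1C 1.79 and 6.93 CPM. Of 25 interferon-stimulated genes 20 passed, 4 only through day 2 and 3 only through day 0, with 4 higher and 3 lower. IFI16, a DNA sensor, measured 0.992 and 31 CPM, 31.2-fold higher (13.1 to 97.4), OAS1, which senses double-stranded RNA, 0 and 8.27 and MX1, an antiviral GTPase, 4.96 and 0.577. IFI16, OAS1 and MX1 each passed on 1 day only, so the filter set their directions. Of the measured members 20% were higher and 15% lower, against 12.1% and 9.93% of all genes. The list median changed sign under some setting. Of 15 iron and heme genes 13 passed, 1 only through day 2, with 1 higher, the iron exporter SLC40A1 (0 and 7.31 CPM), and 1 lower, the heme oxygenase HMOX1 (66.7 and 12.1 CPM, 5.5-fold lower (4.19 to 7.32)). Both ferritin genes were within 2-fold, with FTH1, named after its value was seen, at 1691 and 1932 CPM. Of 22 amino acid and one-carbon genes all passed, with 2 higher and 2 lower. ASNS, asparagine synthetase, measured 119 and 311 CPM, 2.6-fold higher (2.37 to 2.86), SLC7A11, the cystine carrier, 152 and 363, and GLDC, of the glycine cleavage system, 132 and 44.3, 2.99-fold lower (2.57 to 3.49).

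Among 822 long noncoding RNAs tested 26 were higher by 4-fold or more and 10 lower, with a median log2 difference of -0.06. Both were smaller shares than the 4.46% and 2.05% of all 15403 genes tested. LINC00261 (DEANR1), a neighbour of FOXA2 in endoderm, stood at 0.198 CPM at day 0 and 8.85 at day 2, 44.6-fold higher (7.61 to 1799). The nuclear RNAs NEAT1 and MALAT1 measured 10.7 and 39.4 and 90.3 and 225 CPM, both higher. MIAT measured 359 and 139 CPM, 2.58-fold lower (2.37 to 2.82), and MIR124-1HG, a host transcript of the neuronal microRNA miR-124, 27.4 and 0.577 CPM, 47.5-fold lower (15.9 to 233). ESRG went from its high day 0 level to 961 CPM at day 3 and 225 at day 4. Read-through models such as TMX2-CTNND1, at 0 and 74.8 CPM, share exons with their neighbours, and CTNND1 itself measured 421 and 499 CPM.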
